A study of Mus musculus with 24 samples.

Results

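The set described here is the nuclear-encoded respiratory chain, seen through the accessible regions at its gene ends in mouse blood stem and progenitor cells. A region belonged to it when it lay on a nuclear chromosome and at most 1 kb from either end of a protein-coding gene with a symbol that begins with Nduf, with Sdh and a letter from a to d, with Uqcr, with Atp5, or with Cox4 to Cox8. This gave 78 regions of the 13910 in the deposited count table, next to 75 of the 100 genes that fit the symbols. Of the 78 regions, 66 lay within 1 kb of a transcription start listed by RefSeq for the gene and 2 did not. The other 10 belong to genes without a listed start, so they are known only to lie at a gene end.

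The respiratory chain sits in the inner mitochondrial membrane. Complex I (Nduf genes) takes electrons from NADH, complex II (Sdh genes) takes them from succinate, complex III (Uqcr genes) passes them to cytochrome c and complex IV (Cox genes) to oxygen, and ATP synthase (Atp5 genes) uses the resulting proton gradient to make ATP. Most subunits are encoded in the nucleus, and their promoters are known for sites of nuclear respiratory factor 1 (NRF1), of the ETS factor GABP, of SP1 and of YY1. Quiescent blood stem cells are known to rely strongly on glycolysis, and progenitors to rely more on mitochondrial respiration.

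The regions were measured by ATAC-seq, in which Tn5 transposase cuts and tags open chromatin, in bulk samples of 500 to 1500 sorted marrow cells. WT CD45.1 marrow had been transplanted into young CD45.2 mice that were either WT or IκB–, and donor cells were sorted from femur and tibia 13 to 15 weeks later. The sorted subsets were long-term stem cells (HSC), MPP2, MPP3 and MPP4 from both recipient types, which makes 8 groups of 3 libraries. All profiled cells were thus WT donor cells, and the recipient comparison asks whether the marrow environment alters their chromatin. The labels do not describe the genetic change behind the name IκB– or the cells that carry it, nor do they say whether replicates are separate recipients. They give the HSC gate as lacking both CD150 and CD48, the same CD150 setting as for MPP3, and MPP4 as the Flt3+ subset. IκB proteins are inhibitors of the transcription factor NF-κB.

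Libraries held 121599 to 963699 counts, of which 623 to 5593 fell in the 78 regions, so that the median member region held 7.5 to 68 counts. Replicates 2 and 3 of WT MPP3 agree within sampling noise (a chi-square of 1.005 for each degree of freedom, against 1.31 to 4.12 in other pairs) and were counted as 1 sample, which left 23 replicates and n = 2 in that group. Gene ends of any kind took 61.9% of nuclear counts in WT MPP4 replicate 1 and 74.0% in IκB– HSC replicate 3. The IκB– HSC replicate 3 library stood apart from the rest of its group, which ran from 63.2% to 66.0%, and members named below whose highest HSC value came from it are also given without it. Of the markers of the sorting gate, only Kit and Flt3 had a region at a gene end, and of those of other cell types Cd3d, Epor, Itga2b and Pf4 did. The Flt3 region averaged 39.5, 46.0, 56.7 and 62.6 CPM (counts relative to the TMM-scaled library total) in WT HSC, MPP2, MPP3 and MPP4, and 62.4, 63.8, 72.2 and 99.2 CPM in the same subsets of IκB– recipients; its part in the results below was not tested.

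Promoter sequences are shown for the members whose sequence carries a result below. Each run is the 250 bases before a transcription start from RefSeq on GRCm38.p6, 5′ to 3′ on the strand of the gene, and capitals mark matches on either strand to NRF1 (GCATGCGC), ETS (CCGGAAG), YY1 (AAGATGG), SP1 (GGGCGG) or the CCAAT box (CCAAT). Atp5g1, which encodes a copy of the c subunit of the ATP synthase rotor, had the smallest p in the test between subsets, at chr11:96075632-96075881 on the minus strand. The other promoters hold the NRF1 letters before the start and had the highest mean CPM among those that do. They are Ndufa6, an accessory subunit of complex I (chr15:82354292-82354541, minus strand), Ndufaf4, an assembly factor of complex I (chr4:24897833-24898082, plus strand), Atp5g2, another copy of the c subunit (chr15:102671048-102671297, minus strand), and Sdhb, the iron-sulfur subunit of complex II (chr4:140961021-140961270, plus strand).
Atp5g1: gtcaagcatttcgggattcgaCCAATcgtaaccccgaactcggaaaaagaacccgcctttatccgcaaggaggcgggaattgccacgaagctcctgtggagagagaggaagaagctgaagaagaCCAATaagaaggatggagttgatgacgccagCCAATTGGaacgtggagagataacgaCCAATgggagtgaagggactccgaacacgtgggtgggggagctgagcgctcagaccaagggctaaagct
Ndufa6: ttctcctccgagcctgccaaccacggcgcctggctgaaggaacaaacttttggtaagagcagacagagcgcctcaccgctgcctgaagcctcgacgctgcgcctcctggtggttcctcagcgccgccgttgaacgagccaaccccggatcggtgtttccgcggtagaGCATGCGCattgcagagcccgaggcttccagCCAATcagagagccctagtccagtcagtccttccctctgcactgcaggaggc
Ndufaf4: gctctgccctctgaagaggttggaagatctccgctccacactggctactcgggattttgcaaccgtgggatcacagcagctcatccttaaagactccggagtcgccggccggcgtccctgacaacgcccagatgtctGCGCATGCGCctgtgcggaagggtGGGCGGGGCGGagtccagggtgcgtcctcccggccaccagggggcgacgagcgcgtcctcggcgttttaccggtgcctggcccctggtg
Atp5g2: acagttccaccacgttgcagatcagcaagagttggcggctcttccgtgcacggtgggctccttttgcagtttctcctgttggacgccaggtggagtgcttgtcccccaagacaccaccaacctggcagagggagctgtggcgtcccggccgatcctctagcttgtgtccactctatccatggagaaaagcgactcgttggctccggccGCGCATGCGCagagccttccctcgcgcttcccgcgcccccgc
Sdhb: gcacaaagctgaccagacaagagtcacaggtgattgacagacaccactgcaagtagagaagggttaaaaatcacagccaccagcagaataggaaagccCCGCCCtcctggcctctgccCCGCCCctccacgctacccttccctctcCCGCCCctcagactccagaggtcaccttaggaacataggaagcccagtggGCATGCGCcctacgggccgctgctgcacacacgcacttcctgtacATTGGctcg
The Atp5g1 run holds 5 CCAAT matches, of which 2 overlap on opposite strands as CCAATTGG, and none of the other 4 motifs. Ndufaf4 and Atp5g2 each hold 2 NRF1 matches, 1 per strand, that overlap and read as a single block of capitals. The first NRF1 match began 113 bases before the start in Ndufaf4, 83 in Ndufa6, 54 in Sdhb and 42 in Atp5g2.

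A region was present more often at respiratory chain genes than at protein-coding genes as a whole. Of the 100 genes, 75 had a region at an end, against 38.4% of 21883 protein-coding genes, 53 of 78 mitochondrial ribosomal protein genes and 71 of 91 cytosolic ribosomal protein genes. Genes were assigned to a complex by symbol alone, so that Ndufa4 and Ndufa4l2 count under complex I and Cox7a2l under complex IV. Complex II was covered in full, with Sdha, Sdhb, Sdhc and Sdhd, as were its assembly factors Sdhaf1 to Sdhaf4. Coverage was 15 of 17 genes for ATP synthase, 7 of 8 for complex III, where Uqcr11 had none, 31 of 41 for the subunits of complex I and 6 of 8 for its assembly factors. Complex IV was the exception, with 8 of 18 genes. The complex IV genes without a region at an end were Cox4i2, Cox5a, Cox6a2, Cox6b1, Cox6c, Cox7a2, Cox7b, Cox7b2, Cox8b and Cox8c. Among them Cox4i2, Cox6a2, Cox7b2, Cox8b and Cox8c are known as isoforms of particular tissues, whereas Cox5a, Cox6b1, Cox6c, Cox7a2 and Cox7b are general subunits. For Cox5a, Cox7a2 and Atp5d, the delta subunit of ATP synthase, a listed start inside the gene, over 1 kb from its ends, lay in a region that the rule does not take. The table holds only called regions, so the lack of one does not show that a promoter is closed.

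Many member regions lay at the end of a neighbouring gene too. Their width ran from 201 bp at Ndufb10 and Ndufs4 to 1082 bp at Atp5j, with a median of 382 bp, against 403 bp for all gene-end regions and 346 bp for all regions. In 69 of 78 the gene's end itself lay inside the region. Of the 78, 40 (51.3%) were also within 1 kb of an end of another protein-coding gene, compared with 17.8% of the 7614 gene-end regions. Examples are Atp5j with Gabpa, which encodes the DNA-binding subunit of GABP, Ndufb5 with Mrpl47 and Ndufs6 with Mrpl36, which encode mitochondrial ribosomal proteins, and Sdhd with Timm8b, a mitochondrial import gene. Counts of such a region cannot be split between the genes. Ndufa13, Ndufb1 and Ndufb6 had 2 regions each, and 1 region of Ndufa13 (chr8:69903110-69903437) and 1 of Ndufb6 (chr4:40269574-40270006, at the far end of the gene) are those outside 1 kb of a listed start.

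Accessibility of the members was that of ordinary gene ends. Averaged over all groups and divided by width, the 78 regions had a median of 157.7 CPM per kb and ran from 84.0 to 293.9, against medians of 159.3 for all gene-end regions, 155.1 for those of mitochondrial ribosomal proteins and 165.6 for those of cytosolic ribosomal proteins. All 13883 nuclear regions had a median of 140.9 CPM per kb. The highest members were Ndufb5 at 293.9, Ndufa6 at 293.6, Atp5b, the catalytic beta subunit of ATP synthase, at 264.4, and Ndufa5 at 261.0 CPM per kb. The lowest were the smaller Ndufb1 region at 84.0, Atp5a1, the alpha subunit of ATP synthase, at 91.2 and Atp5g3, a copy of the c subunit, at 91.8 CPM per kb. Subunits of one enzyme therefore differed in this level by over 2-fold, as Atp5b and Atp5a1 do within the same catalytic head.

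The other complexes covered narrower ranges. Within complex II, Sdhb was highest at 188.8 and Sdhc lowest at 125.9 CPM per kb. Within complex III, Uqcrq at 220.4 and Uqcr10 at 127.7 CPM per kb were the extremes, both small accessory subunits. Within complex IV they were Cox7c at 246.3, present in all tissues, and Cox7a1 at 108.9 CPM per kb, the isoform known from heart and skeletal muscle. The assembly factors of complex I ran from 131.1 (Ndufaf3) to 234.5 CPM per kb (Ndufaf5), and those of complex II from 112.6 (Sdhaf2) to 213.9 (Sdhaf1). Variation between replicates, as the biological coefficient of variation estimated by edgeR, had a median of 0.177 in the members, 0.181 in all tested gene-end regions and 0.230 in tested regions outside gene ends.

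**Figure D1:**
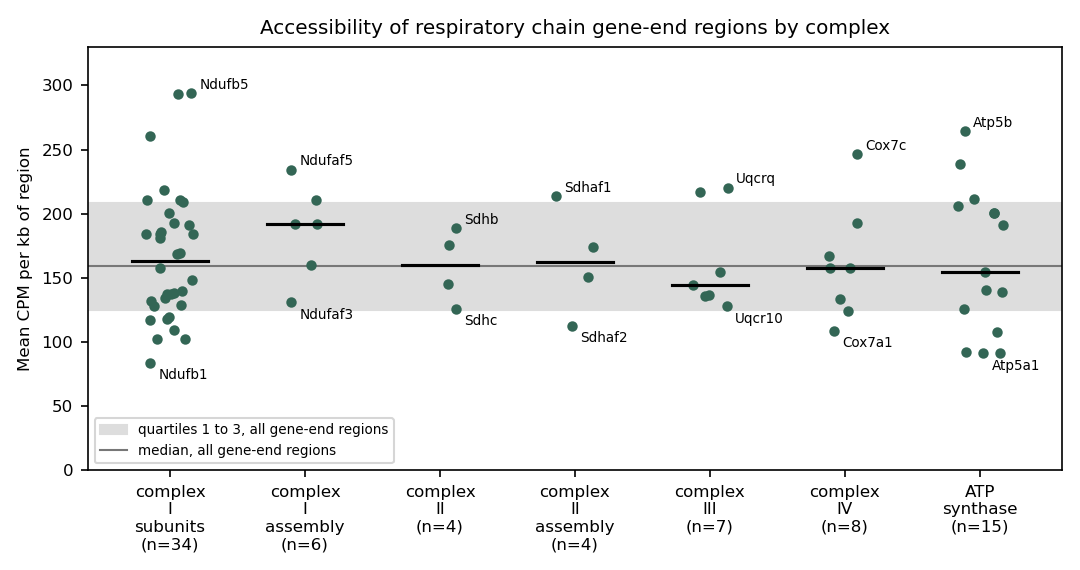
Mean accessibility of the 78 regions (vertical axis, CPM per kb of region, mean over the 8 groups) by complex. Points are regions, black bars group medians, and the grey band the quartiles of all gene-end regions, around which the members are spread.

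The share of signal in the members stayed within a narrow range over libraries. They took 0.811% to 0.958% of the counts at gene ends in the 23 replicates, with medians of 0.873% in WT recipients (n = 11) and 0.843% in IκB– recipients (n = 12). By group, the means ± SD were 0.901% ± 0.0492 in WT HSC and 0.843% ± 0.0386 in IκB– HSC, 0.877% ± 0.0418 and 0.839% ± 0.0192 in MPP2, 0.865% ± 0.0551 (n = 2) and 0.851% ± 0.0286 in MPP3, and 0.877% ± 0.0173 and 0.875% ± 0.0581 in MPP4, with n = 3 unless given. The recipient types overlapped in each subset, and no test was made on this share.

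**Figure D2:**
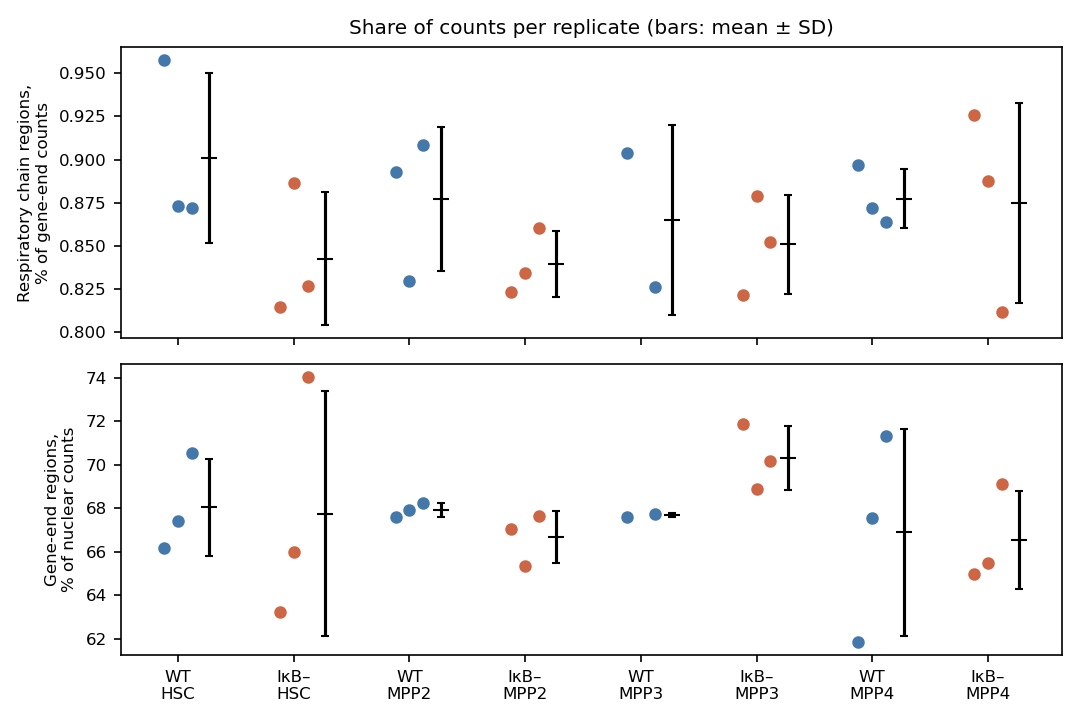
Share of gene-end counts in the 78 regions (upper panel, %) and share of nuclear counts at gene ends (lower panel, %) in each replicate, with bars for mean ± SD (n = 3, 2 in WT MPP3). The upper share stays between 0.811% and 0.958%, while IκB– HSC replicate 3 is the highest point of the lower panel.

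Across recipients, no member region passed the test. For the recipient effect averaged over the 4 subsets, edgeR's quasi-likelihood test called 0 of 78 regions at an adjusted p under 0.05, against 1.73% of the 13325 regions tested and 0.524% of the tested gene-end regions. DESeq2 and limma-voom also called 0. With no adjustment, 4 members had a p under 0.05 by edgeR (5.13%), 3 by DESeq2 and 6 by limma-voom, against an edgeR share of 14.3% over all regions and 9.35% over gene ends. Log2 fold changes (IκB– over WT) ran from -0.69 to 0.76, with a median of -0.05, and 47 of 78 were negative. The median over all gene-end regions was 0.01. For 76 of the 78 the 95% interval stayed within a 2-fold change in either direction. If the 23 replicates are independent, a change of 2-fold shared by all 4 subsets lay outside the interval there. The labels do not say whether subsets of the same number come from the same animal. Libraries of the same number and recipient correlated at 0.0286 to 0.337 between subsets, and shared animals would make these intervals too narrow. In these bulk samples, fewer cells with an open region and less access per cell cannot be told apart.

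**Figure D3:**
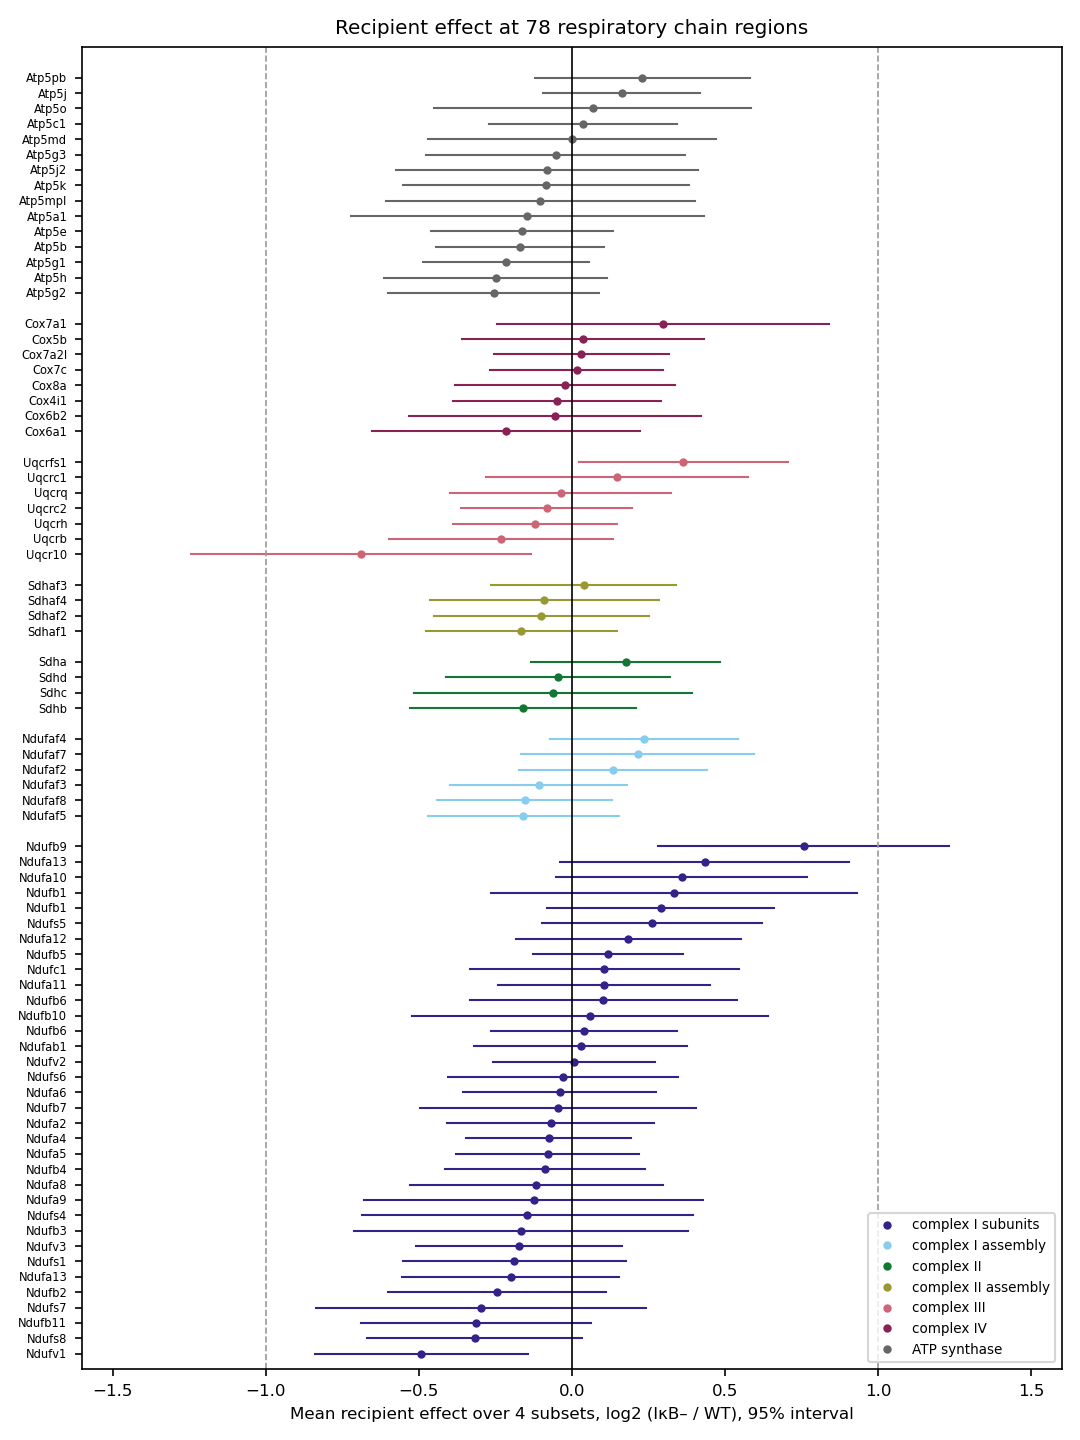
Recipient effect averaged over 4 subsets for the 78 regions (horizontal axis, log2 of IκB– over WT, point and 95% interval from edgeR), grouped by complex, with dashed lines at a 2-fold change. The extremes are Ndufb9 at 0.76 and Uqcr10 at -0.69.

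By complex, the mean recipient effect gave no group with a common direction. Among complex I subunits 15 regions were above 0 and 19 below, with a median log2 fold change of -0.04, and its assembly factors were divided 3 to 3. ATP synthase had 5 above and 10 below (median -0.08), complex III 2 above and 5 below (median -0.08) and complex IV 4 above and 4 below (median -0.00). Complex II and its assembly factors each had 1 above and 3 below, with medians of -0.05 and -0.09. None of these regions was called by edgeR, so the counts describe signs only.

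Ndufb9, an accessory subunit of complex I, came closest to the threshold. Its region (chr15:58933660-58933865, 206 bp, also at the end of Tatdn1) had a lowest, median and highest value of 16.4, 23.6 and 27.5 CPM in WT recipients and of 15.1, 38.4 and 74.9 CPM in IκB– recipients. The ranges overlap. In MPP2 the WT replicates had 16.9, 27 and 16.4 CPM and the IκB– replicates 37.2, 43.5 and 39.6 CPM, and in MPP3 the values were 24.4 and 24.2 against 41.7, 44.1 and 40.2 CPM. In both of these subsets all IκB– replicates lay above all WT replicates. In HSC the values were 18.3, 23.3 and 18.7 against 20.4, 35.4 and 74.9 CPM, and in MPP4 27.5, 27.5 and 23.6 against 32.3, 15.1 and 30.5 CPM. HSC and MPP4 overlapped, although in HSC each IκB– value was above the WT value of the same replicate number. The mean effect was a log2 fold change of 0.76 ± 0.24 (SE; adjusted p = 0.0774 by edgeR), from 2 to 44 counts per library. The highest value came from IκB– HSC replicate 3, without which the log2 fold change was 0.56 and the adjusted p 0.281. Without IκB– HSC replicate 1 they were 0.84 and 0.0265, past the threshold. With the replicate number as a block and all 24 libraries kept apart they were 0.75 and 0.0474, also past it. That fit called 482 of all regions in place of 231. Over 33 alternatives the adjusted p ran from 0.0265 to 0.281.

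Ndufv1 and Uqcr10 were the members furthest in the other direction. Ndufv1, the complex I core subunit that binds NADH and its flavin cofactor, ran from 38.2 over a median of 79.3 to 103.6 CPM in WT recipients and from 22.6 over 52.5 to 83.7 CPM in IκB– recipients. The ranges overlap over most of their length. Its log2 fold change was -0.49 ± 0.17 (adjusted p = 0.137 by edgeR). In MPP4, the WT replicates had 68.9, 96.3 and 80.3 CPM and the IκB– replicates 56.6, 22.6 and 58.0 CPM, with no overlap, at an adjusted p of 0.691.

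Uqcr10, a small subunit of complex III, turned on 1 library. WT replicates ran from 27.1 over 42.1 to 56.0 CPM and IκB– replicates from 0 over 21.2 to 70.5 CPM, where the lowest and the highest value of all 23 both came from IκB– HSC. Its 3 replicates had 0, 8.84 and 70.5 CPM, from 0, 1 and 16 counts. In MPP3 the WT replicates had 46.9 and 30.3 CPM and the IκB– replicates 12.3, 20.9 and 21.5 CPM, and in MPP4 they had 48.2, 34.4 and 51.9 against 29.6, 15.1 and 24.4 CPM. Neither of these pairs of groups overlapped. The mean effect was -0.69 ± 0.28 (adjusted p = 0.202 by edgeR). Without IκB– HSC replicate 3 it was -1.43 with an adjusted p of 0.0100, past the threshold, and over 33 alternatives the adjusted p ran from 0.0100 to 0.338. Uqcr10 shares its region with the end of Zmat5.

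The remaining members named by the ranking were further from the threshold. Uqcrfs1, the Rieske iron-sulfur protein of complex III, had a log2 fold change of 0.36 ± 0.17 (adjusted p = 0.299), Ndufa13 one of 0.43 ± 0.23 (0.396) and Ndufs8, a core subunit with iron-sulfur clusters, one of -0.32 ± 0.17 (0.406). For each of these the recipient types overlapped.

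**Figure D4:**
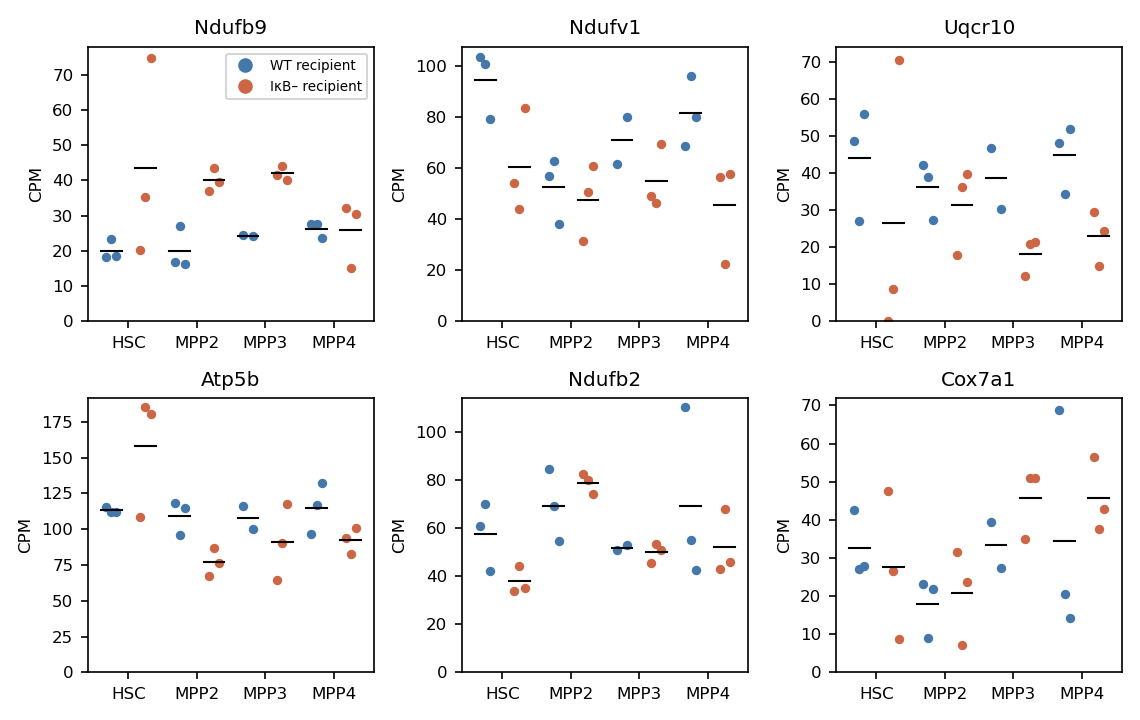
CPM of 6 member regions in every replicate (points, vertical axis from 0) by subset, blue for WT and orange for IκB– recipients, bars at group means. Ndufb9 shows separate groups in MPP2 and MPP3, and Uqcr10 the spread from 0 to 70.5 CPM in IκB– HSC.

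Within HSC, edgeR called 0 members (0% of all regions), as did DESeq2 and limma-voom. With the replicate number as a block and all 24 libraries kept apart, edgeR also called 0. The values that follow come from the fit without this pairing. Before adjustment 5 members (6.41%) had a p under 0.05 by edgeR, near the 6.23% of all regions, 3 by DESeq2 and 6 by limma-voom. The smallest p belonged to Ndufs5, an accessory subunit of complex I, with 54.8, 58.1 and 27.98 CPM in WT and 74.6, 70.7 and 119 CPM in IκB– recipients. The groups did not overlap, and the log2 fold change was 0.96 ± 0.41 (adjusted p = 0.710 by edgeR). Without IκB– HSC replicate 3, the highest of them, it was 0.62 (0.808; over 34 alternatives 0.361 to 1). The distal Ndufa13 region had a log2 fold change of -0.84 and Uqcrb, a ubiquinone-binding subunit of complex III, one of -0.83, which was -0.34 without that library. Groups did not overlap in 4 of 78 members, against 8.51% of all regions. Only 28 of the 78 intervals stayed within 2-fold, and the median of the members was -0.06, which became 0.11 without IκB– HSC replicate 1 and -0.13 without replicate 3.

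Within MPP2, edgeR, DESeq2 and limma-voom called 0 members (background 0%). Unadjusted p-values under 0.05 numbered 4 by edgeR (5.13%, against 3.65% of all regions), DESeq2 0 and limma-voom 4. Besides Ndufb9 (0.94 ± 0.44) they included Atp5b, with 118, 96.0 and 115 CPM in WT and 67.4, 87.1 and 76.6 CPM in IκB– recipients. The groups did not overlap, and the log2 fold change was -0.56 ± 0.27 (adjusted p = 0.9996 by edgeR). Ndufs8 had -0.68 ± 0.33, and Ndufs6, an accessory subunit with a zinc site, 0.53 ± 0.35 without reaching an unadjusted p under 0.05. Groups did not overlap in 8 members (10.3%), against 11.8% of all regions, and 45 of 78 intervals stayed within 2-fold.

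Within MPP3, edgeR called 0 members against 0.21% of all regions, and DESeq2 and limma-voom called 0. Without adjustment edgeR counted 3 with a p under 0.05 (3.85%, against 9.49% of all and 4.29% of gene-end regions), DESeq2 3 and limma-voom 5. Ndufa13, an accessory subunit of complex I also known as GRIM-19, had 24.4 and 25.8 CPM in WT and 51.2, 48.7 and 72.4 CPM in IκB– recipients at chr8:69901603-69901830. All IκB– replicates lay above the WT replicates, with a log2 fold change of 1.16 ± 0.41 (adjusted p = 0.257 by edgeR). Ndufaf7, an assembly factor with methyltransferase activity, had 54.4 and 27.3 against 70.1, 74.2 and 69.7 CPM (0.82 ± 0.35, adjusted p = 0.382). Uqcr10 was at -1.15 ± 0.52 and Atp5a1 at -0.87 ± 0.50. Groups did not overlap in 11 members (14.1%), against 28.2% of all regions and 24.2% of gene-end regions, where the WT group has n = 2, and 56 of 78 intervals stayed within 2-fold.

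Within MPP4, edgeR called 0 members against 0.045% of all regions, and DESeq2 and limma-voom called 0. At an unadjusted p under 0.05, edgeR counted 4 (5.13%, against 7.07% of all regions), DESeq2 2 and limma-voom 2. Ndufb5, an accessory subunit of complex I, had 96.4, 162 and 179 CPM in WT and 202, 271 and 198 CPM in IκB– recipients. These groups did not overlap, with a log2 fold change of 0.54 ± 0.24 (adjusted p = 0.644 by edgeR). The wider Ndufb1 region was at 0.91 ± 0.40 with overlapping groups, Ndufv1 at -0.73 ± 0.35 and Atp5md, a small membrane subunit of ATP synthase, at -0.73 ± 0.46. Groups did not overlap in 8 members (10.3%), against 11.8% of all regions, and 33 of 78 intervals stayed within 2-fold.

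A joint test asked whether recipient effects were unequal among the 4 subsets. edgeR, DESeq2 and limma-voom called 0 members (0% of all regions by edgeR), and 0 members had an unadjusted p under 0.05 by edgeR or DESeq2 and 1 by limma-voom, against 4.05% of all regions by edgeR. The member with the smallest p was Atp5b (adjusted p = 0.999 by edgeR), with 116, 112 and 112 CPM in WT HSC and 109, 186 and 181 CPM in IκB– HSC, beside the lower IκB– values in MPP2 given above. Sdha, the flavoprotein of complex II, and Ndufa5 came next. No difference in recipient effect between subsets was detected for a member in this test.

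Between subsets, over both recipient types, edgeR again called 0 members in each comparison. In the joint test of any difference among the 4 subsets, edgeR called 0 members against 7.2% of all regions and 1.63% of gene-end regions, and DESeq2 and limma-voom called 0. As for p under 0.05 without adjustment, edgeR counted 6 members (7.69%), near the 8.88% of gene-end regions and below the 18.8% of all regions, DESeq2 counted 1 and limma-voom 4. Atp5g1 had the smallest p (adjusted p = 0.144 by edgeR, 0.211 without IκB– HSC replicate 3, and 0.0186 to 0.288 over 34 alternatives, which thus fall on both sides of the threshold). Its lowest, median and highest values were 106, 145 and 242 CPM in HSC, 87.1, 118 and 154 CPM in MPP2 and 75.3, 106 and 151 CPM in MPP4. The 5 MPP3 replicates had 129, 180, 122, 153 and 147 CPM. The order of the subset means was HSC, MPP3, MPP2 and MPP4, and neighbours in it overlap.

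The largest number of calls among all regions came from MPP3 against MPP2. There edgeR called 0 members and DESeq2 0, against 8.12% of all and 2.73% of gene-end regions, whereas limma-voom called 1, Ndufb2, an accessory subunit of complex I. Of 34 alternatives 30 called 0 members. The highest number, 5, came with recipient and replicate together as a block, where 2459 of all regions were called in place of 1082. At an unadjusted p under 0.05 edgeR counted 7 members (8.97%, against 21.8% of all and 14.2% of gene-end regions), DESeq2 3 and limma-voom 11. Ndufb2 had a lowest, median and highest value of 54.5, 76.9 and 84.3 CPM in MPP2, and its MPP3 replicates had 50.7, 53.0, 45.5, 53.3 and 51.0 CPM. All MPP3 replicates lay below all MPP2 replicates, with a log2 fold change of -0.57 ± 0.22 (adjusted p = 0.0986 by edgeR and 0.0331 by limma-voom; over 34 alternatives 0.0252 to 0.317). Cox7a1 went the other way, from 7.26 over 22.5 to 31.7 CPM in MPP2 to 39.4, 27.3, 35.0, 51.0 and 51.0 CPM in MPP3. These overlap at 1 MPP3 replicate, and the log2 fold change was 0.84 ± 0.35 (adjusted p = 0.131 by edgeR). With the share of counts at gene ends as a covariate it was 1.13 with an adjusted p of 0.0146, the lowest of 34 alternatives, which reached 0.308. Sdhaf3, an assembly factor of complex II, had -0.43 ± 0.19 and Ndufaf3 0.42 ± 0.19. Markers of other lineages were also unequal here: the region of Pf4, a megakaryocyte gene, ran from 29.0 to 81.0 CPM in MPP2 and from 13.9 to 27.3 CPM in MPP3, and that of Epor, the erythropoietin receptor, from 0 to 65.5 and from 13.4 to 24.6 CPM. Those of Itga2b (27.3 to 44.2 and 20.8 to 47.0 CPM) and Cd3d (38.5 to 65.3 and 33.1 to 64.9 CPM) overlapped over most of their range, and the part of these lineages in the member values was not tested. Among complex I subunits 25 regions were above 0 and 9 below (median 0.15), and in complex III 2 were above and 5 below (median -0.35), against a median of 0.04 over gene-end regions, 0.13 over cytosolic and 0.10 over mitochondrial ribosomal protein regions.

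Against HSC, edgeR, DESeq2 and limma-voom called 0 members in all 3 comparisons. The edgeR background was 0.03% of all regions for MPP2, 2.58% for MPP3 and 1.22% for MPP4, and 0%, 0.564% and 0.188% of gene-end regions. At an unadjusted p under 0.05, edgeR counted 6 members for MPP2 (7.69%, against 8.32% of all regions), 3 for MPP3 (3.85%, against 14.3%) and 3 for MPP4 (3.85%, against 12%), beside 7.26%, 7.77% and 6.58% of gene-end regions. DESeq2 counted 6, 2 and 2, and limma-voom 6, 4 and 2. Atp5b had the smallest p of the members in MPP2 (-0.57 ± 0.19, adjusted p = 0.419 by edgeR) and in MPP3 (-0.46 ± 0.19, 0.227), lower than HSC in both. Also lower than HSC in value was Sdhaf4, an assembly factor of Sdha, in MPP2 (-0.72 ± 0.27) and MPP3 (-0.62 ± 0.26). Ndufb2 (0.70 ± 0.26) and Sdhaf3 (0.59 ± 0.22) had higher values in MPP2 than in HSC, with overlapping groups. On the higher side in MPP3 the ranking gave Ndufb7, an accessory subunit of complex I (0.57), and Atp5g2 (0.40), and in MPP4 Ndufb7 (0.59) and Atp5g3 (0.58). By complex, 7 of the 8 complex IV regions were below 0 in each comparison with HSC, with medians of -0.39 for MPP2, -0.18 for MPP3 and -0.16 for MPP4. The medians were -0.08, -0.03 and -0.04 over the 78 members, -0.05, -0.03 and -0.06 over gene-end regions and -0.01, -0.02 and -0.02 over all regions. Over cytosolic ribosomal protein regions they were -0.18 (52 of 72 below 0), -0.03 and -0.04, and over mitochondrial ones -0.06, -0.01 and -0.04. Complex III had 3 regions above 0 and 4 below in MPP2 (median -0.07), 1 and 6 in MPP3 (-0.21) and 2 and 5 in MPP4 (-0.11). These signs rest in part on IκB– HSC replicate 3: without it complex IV had 7, 5 and 5 regions below 0 (medians -0.28, -0.10 and -0.10), and complex III 1, 3 and 4 (0.24, 0.01 and -0.09). The part of lineage markers was not tested. Epor averaged 52.3 CPM in WT and 29.0 CPM in IκB– HSC, and 19.2 and 18.1 CPM in MPP3. Pf4 averaged 35.0 and 34.9 CPM in HSC, 17.3 and 19.4 CPM in MPP4, but 53.5 and 45.7 CPM in MPP2. Replicate ranges overlapped for Epor (17.6 to 73.1 CPM in HSC, 13.4 to 24.6 in MPP3) and Pf4 (8.81 to 61.9 CPM in HSC, 0 to 37.8 in MPP4). Cd3d averaged 49.7 and 59.1 CPM in HSC, 51.7 and 50.6 CPM in MPP3 and 60.9 and 53.2 CPM in MPP4. Itga2b averaged 43.45 and 52.2, 42.2 and 33.7, and 46.3 and 31.45 CPM in the same order. The comparisons with HSC share its libraries, and no region of complex III or IV was called.

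Ndufa6 and Atp5g1 had the smallest p between MPP4 and HSC. Ndufa6 ran from 88.4 over 118 to 216 CPM in HSC and from 45.2 over 79.7 to 151 CPM in MPP4, with a log2 fold change of -0.68 ± 0.23 (adjusted p = 0.151 by edgeR). For Atp5g1 it was -0.57 ± 0.20 (0.164). The highest HSC value of both regions, 216 and 242 CPM, came from IκB– HSC replicate 3. Without it the log2 fold changes were -0.53 for Ndufa6 (adjusted p = 0.293) and -0.33 for Atp5g1 (0.506), and over 34 alternatives the adjusted p ran from 0.0360 to 0.408 and from 0.0691 to 0.506.

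Comparisons among MPP subsets other than MPP3 with MPP2 added little. For MPP4 against MPP2, edgeR, DESeq2 and limma-voom called 0 members (3.37% of all regions by edgeR), with 3 at an unadjusted p under 0.05 by edgeR (3.85%, against 15.7%), 3 by DESeq2 and 4 by limma-voom. Uqcrfs1 ran from 74.0 over 80.5 to 102 CPM in MPP2 and from 42.5 over 56.5 to 60.2 CPM in MPP4. The subsets did not overlap, and the log2 fold change was -0.63 ± 0.23 (adjusted p = 0.134 by edgeR). Next on the lower side was Ndufb2 (-0.41 ± 0.23, 0.403). Higher in value in MPP4, with overlapping groups, were Ndufaf3 (0.46 ± 0.20, 0.225) and Cox7a1 (0.83 ± 0.38, 0.251). The Pf4 region ran from 29.0 to 81.0 CPM in MPP2 and from 0 to 37.8 CPM in MPP4. Itga2b went the other way, with means of 35.8 CPM in WT MPP2 and 46.3 CPM in WT MPP4, and 30.3 and 31.45 CPM in IκB– recipients. Epor (0 to 65.45 CPM in MPP2, 21.35 to 58.5 in MPP4) and Cd3d (38.5 to 65.3 and 32.3 to 89.7 CPM) overlapped. The part of these markers in the member values was not tested. For MPP4 against MPP3 all 3 tools called 0 members (0% of all regions by edgeR), with 1 at an unadjusted p under 0.05 by edgeR (1.28%, against 4.04%), 1 by DESeq2 and 2 by limma-voom. That member was Atp5g1 (-0.44 ± 0.19), and the others the ranking named were Ndufb11 (0.50), Ndufs1 (0.37) and Ndufab1, the acyl carrier protein (-0.40). For these subset pairs, 68 and 74 of the 78 intervals stayed within 2-fold, and 71 did for MPP3 against MPP2.

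Other genes of energy metabolism were counted from lists made with earlier results of these data known. Regions of 36 of 45 assembly and electron carrier genes, 19 of 25 regulators of mitochondrial biogenesis, 18 of 19 genes of the TCA cycle and 13 of 17 glycolytic genes were tested. The lists are not free of member regions, since the region of Gabpa, a listed regulator, is also that of Atp5j. For the mean recipient effect edgeR called 0 regions in each list. At an unadjusted p under 0.05 were 4 of 38, 5 of 21, 0 of 18 and 3 of 13 regions, against 14.3% of all regions and 9.35% of gene-end regions. The medians were -0.00, -0.00, 0.03 and 0.09 (log2), against -0.00 over all regions and 0.01 over gene-end regions. Between MPP3 and MPP2, 3 of 13 glycolytic regions passed by edgeR, against 8.12% of all regions and 2.73% of gene-end regions. Pkm, pyruvate kinase (0.86 ± 0.25, adjusted p = 0.0224), and Pgam1, phosphoglycerate mutase (0.80 ± 0.26, 0.0434), were higher in MPP3. Ldhb, a lactate dehydrogenase subunit, was lower (-1.07 ± 0.29, 0.0135). Ldhb was also lower in MPP3 than in HSC (-1.09 ± 0.31, 0.0474), as was Fh1, the fumarase of the TCA cycle (-0.60 ± 0.16, 0.0289). These were 1 of 13 glycolytic and 1 of 18 TCA cycle regions, against 2.58% of all regions and 0.564% of gene-end regions. In the same comparisons edgeR called 0 of the 78 respiratory chain regions, limma-voom called Ndufb2 between MPP3 and MPP2, and the difference between the lists was not tested.

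Motif letters were counted in the member promoters and in other promoters, with no test of the shares. For the genes of the rule, 68 promoters of 64 genes have their start inside a region, 64 of them inside one of the 78, and the other 4 are those of Cox5a, Cox7a2 and Atp5d. They were searched from 250 bases before to 50 after the start on both strands. NRF1 letters were in 13.2% of them (14.1% of the 64), against 6.91% of all 7800 promoters with a start in a region and 2.71% of all 32851 promoters of the same length. With 1 free position (GCANGCGC, which includes the strict form) the shares were 41.2%, 23.9% and 9.61%. YY1 letters were in 13.2%, 7.69% and 6.34%, and lay mainly after the start, at a median of 22 bases downstream. When the 50 bases after the start were left out, the YY1 share was 1.47% against 4.44% and 4.49%, and the NRF1 share 10.3% against 5.72% and 2.26%. Strict NRF1 letters were found for Atp5g2, Atp5k, Ndufaf4, Ndufaf5, Ndufa6, Ndufa8, Sdhb, Uqcrc1 and Cox6a1, which spans complexes I to IV and ATP synthase.

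SP1 letters went the other way. They were in 48.5% of these 68 promoters (48.4% of the 64), against 73.9% of open promoters and 35.7% of all promoters. The GC content had medians of 59.3%, 63.0% and 52.7% in the same order, and its part in the SP1 share was not tested. ETS letters were in 17 of the 68, and in 22.5% and 8.86% of the others, CRE letters (TGACGT) in 11.8%, 14.5% and 7.51%, the CCAAT box in 41.2%, 43.3% and 37.4% and TATA letters (TATAAA) in 4.41%, 4.96% and 13.6%. A match is a description of letters and not of a bound site.

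**Figure D5:**
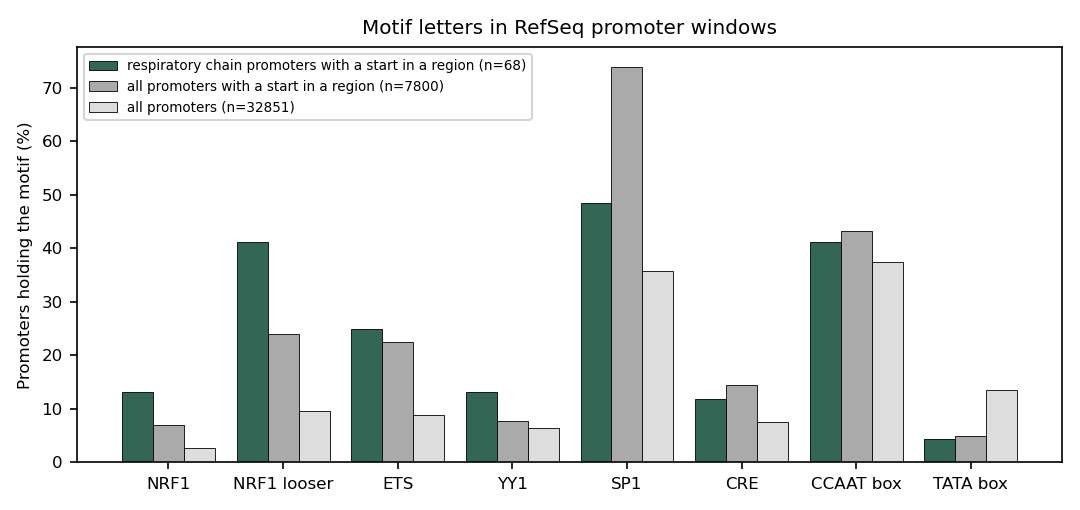
Share of promoters (vertical axis, %) that hold each motif within 250 bases before to 50 after the start, for respiratory chain promoters with a start in a region (n = 68), all promoters with a start in a region (n = 7800) and all promoters (n = 32851). NRF1 and YY1 letters are more frequent in the first group than in the second, and SP1 letters less frequent.

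Levels were also compared between members with and without a feature. The 9 regions with strict NRF1 letters had a median of 188.8 CPM per kb and the 52 without 157.7. For SP1 letters the medians were 186.5 (30 regions) and 144.5 (31 regions), and for regions shared with another gene end 172.4 (40) and 152.4 (38). The order was the other way for ETS letters, with 157.6 (17) and 164.4 (44), for CRE letters, with 144.5 (7) and 168.0 (54), and for TATA letters, with 125.6 (3) and 163.5 (58). The ranges overlapped in each case, and these splits were not tested. The median recipient effect (log2, mean over subsets) was -0.12 in 27 regions with a CCAAT box and 0.03 in 34 without, and -0.12 and -0.04 with and without strict NRF1 letters. With the looser NRF1 form the order turned, at -0.04 in 25 regions with it and -0.07 in 36 without.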

How the data were processed

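The deposited table holds raw counts of 13910 regions in 24 ATAC-seq libraries, as the authors counted them. Per the submitters' processing notes the build is mm10, and Bowtie2, SAMtools, Picard, MACS2 2.1.0 and deepTools were used; whether duplicates were removed, reads shifted for Tn5 or replicates pooled for peak calling is not given in the sources used here. Gene ends came from a RefSeq table and promoters from RefSeq on GRCm38.p6. Members and lists were chosen with earlier results of these data known.

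Counts were scaled by TMM, filtered by filterByExpr (13325 regions, all 78 members) and fitted with edgeR 4.0.16 in R 4.3.3 as 8 group means over 23 replicates, with robust quasi-likelihood F tests on 15 residual degrees of freedom. Adjusted p-values are Benjamini-Hochberg over all regions of a contrast. CPM are on TMM-scaled library sizes; SE and 95% intervals come from the fit. p-values measure the spread between these samples, which may be technical, since the labels do not say that replicates are separate animals. Alternatives were DESeq2 1.42.0, limma-voom (limma 3.58.1), other scalings, no filter, a covariate, blocks and leaving out each replicate. The fit was tested on simulated data. Promoters were searched on both strands by exact letters.

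Members named in the text were those ranked first by p in each direction of each contrast (3 for the mean recipient effect and for the joint tests, 2 otherwise), the highest and lowest per complex, genes with 2 regions, genes of complexes II to IV without one, and the widest and narrowest regions. Promoters shown follow the joint test of subsets and the NRF1 letters. Any other member was named as an example, or because an alternative called it, after its values were seen. Replicate numbers were checked for pairing by the correlation of deviations from the group means. In HSC the WT and IκB– libraries of the same number correlated at 0.166, 0.151 and 0.371, so the numbers were read as pairs there, from the data. The main fit does not use these pairs, and the replicate number enters only the fits with a block. In the other subsets and between subsets not every pair passed 0.1.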

Additional observations from a re-analysis of the deposited data

How the results depend on the processing

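edgeR called 0 members in all 13 comparisons. Over all alternatives 434 recounts stayed at or within 1.5 times their value and 11 moved; the number of genes with a region was 73 within 0.5 kb and 75 within 2 kb. For the mean recipient effect, leaving out 1 replicate gave 0 to 1 calls: Ndufb9 without IκB– HSC replicate 1 and Uqcr10 without IκB– HSC replicate 3. With the replicate number as a block, and all 24 libraries kept apart, the count was 1 there (Ndufb9, adjusted p = 0.0474), 1 for MPP4 against HSC (Ndufa6, 0.0434), 3 for MPP3 against MPP2 (Ndufb2, Cox7a1 and Cox7c) and 1 in the joint test of subsets (Atp5g1, 0.0224). With recipient and replicate together as a block the counts for the last 3 were 1, 5 (with Uqcrc2 and Uqcrb added) and 1. Over all regions the same blocks raised the numbers called from 231 to 482 (mean recipient effect), from 163 to 401 and 447, from 1082 to 2200 and 2459, and from 960 to 1941 and 2165. They also gave 814 and 934 in place of 344 for MPP3 against HSC, 30 and 32 in place of 4 for MPP2 against HSC, 851 and 957 in place of 449 for MPP4 against MPP2, 2 and 13 in place of 0 for MPP4 against MPP3 and 6 and 30 in place of 0 in the joint recipient test. For MPP3 recipients the replicate block gave 383 and keeping 24 libraries apart alone 78, in place of 28, whereas a fit of the 2 groups alone gave 6. Other settings moved these background numbers too: limma-voom gave 143 in place of 28 for MPP3 recipients and 33 in place of 163 for MPP4 against HSC, DESeq2 gave 147 in place of 231 for the mean recipient effect, and the gene-end covariate gave 387 there and 944 in place of 449 for MPP4 against MPP2. For MPP4 recipients the 6 regions called became 1 with DESeq2, DESeq2 size factors, total counts, cyclic loess, nuclear regions only or the 2 groups alone, 0 with limma-voom, and 0 to 6 on leaving out 1 replicate. The block left the HSC recipient effect at 0 calls. Libraries of the same number and recipient correlated at 0.0286 to 0.337 between subsets and those of different numbers at -0.307 to 0.126, a hint from the data and not the design. For MPP3 against MPP2, limma-voom gave 1 call (Ndufb2; 1661 over all regions) and the gene-end share as a covariate 1 (Cox7a1); the cause was not tested. No named member reversed its sign. Total counts in place of TMM moved the median of all regions in MPP3 against HSC by 0.14 (log2) and that of the members from -0.03 to 0.10, close to the 0.12 then found for all regions.

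Precision was lowest within 1 subset, where groups hold 2 or 3 replicates: in HSC the 95% interval reached a 2-fold change for 50 of 78 members, and in MPP4 for 45. Over all regions, leaving out 1 replicate moved the number called for the mean recipient effect between 52 and 442, from 231, that for MPP3 recipients between 0 and 146, from 28, that against HSC between 1 and 21 for MPP2 (from 4), 175 and 799 for MPP3 (from 344) and 59 and 292 for MPP4 (from 163), that for MPP3 against MPP2 between 598 and 1584 (from 1082), that for MPP4 against MPP2 between 189 and 733 (from 449) and that of the joint test of subsets between 623 and 1472 (from 960).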
